A study of Oryza sativa with 12 samples.

Results

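RNA of aerial organs from 12-day-old rice seedlings of the near-isogenic line NIL-TT2HPS32 (HPS32 below) was sequenced at 28 °C and after heat. Its libraries are the 6 of 12 in the series that carry this line, 3 kept at 28 °C and 3 taken after 20 h at 42.5 °C, and each gene was tested between these groups. HPS32 is labelled as carrying a loss-of-function allele of TT2, which encodes a G protein gamma subunit, and both of its groups share that allele. The other 6 libraries come from NIL-TT2HJX (HJX below), labelled wild type, at the same age, temperatures and time, and they serve here only where the responses of both lines are compared. The labels do not say that replicates are separate plants, so p-values measure the spread between these samples, which may be technical.

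Heat unfolds proteins, and plant cells answer through heat stress transcription factors (HSFs), which bind the promoters of chaperone genes. Small heat shock proteins hold unfolding proteins in a soluble state, Hsp70 with its DnaJ partners and Hsp90 refold them, and Clp-type ATPases pull aggregates apart. In leaves, photosystem II, Rubisco activase and chlorophyll synthesis are known as heat-sensitive points of photosynthesis. Gene names below that go beyond the deposited domain descriptions come from general knowledge of rice, matched by identifier.

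The HPS32 libraries held 14785975 to 16594903 reads assigned to genes, and 25473 of 40674 listed genes were tested. Replicates agreed closely, with r between 0.985 and 0.993 on log2(CPM + 1) within a group against 0.859 to 0.876 between the groups, across genes that are not independent. Reads were spread over more genes under heat: the most highly read genes that together held 50% of the reads numbered 1234, 1241 and 1245 in the 28 °C libraries and 2319, 2304 and 2284 in the heat libraries. TMM scaling factors were accordingly 0.856 to 0.865 at 28 °C and 1.26 to 1.28 under heat. With scaling by total counts alone the median over all genes that were tested moved, on the log2 scale, from -0.03 to 0.54. Every fold change, CPM value and call below is therefore relative to the TMM reference. Counts under total counts stand beside most group counts of genes that rose and fell. Counts of large changes, of genes without reads in a group and of classes of level and length are under TMM scaling only. Shares of reads are percents of all assigned reads without TMM scaling. From 28 °C to heat such shares rise more, or fall less, than CPM do. TT2 itself had 5, 1 and 1 reads at 28 °C and 7, 6 and 3 under heat, too few to be tested or to check the genotype label.

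Replicate 1 at 28 °C stood apart in a set of genes. Of 15298 genes at an average of log2 CPM 3 or more, 92 had an SD above 1 on the log2 scale among the 28 °C libraries and 0 among the heat libraries, and 91 of the 92 were highest in replicate 1. WRKY transcription factors, which include many genes induced within minutes of touch or wounding, took 0.236%, 0.142% and 0.14% of the reads in the 28 °C replicates 1, 2 and 3. EF-hand calcium sensors took 0.533%, 0.415% and 0.375%. Both groups were highest in replicate 1, and results on them are given with and without it. NAC transcription factors were also highest there, at 0.2%, 0.154% and 0.154%, and their counts below include that replicate.

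Leaf markers were abundant and root markers were near 0. The 6 leaf genes, which encode Rubisco small subunits, Rubisco activase and light-harvesting proteins, took 3.26% to 3.45% of the reads at 28 °C and 0.253% to 0.318% under heat. Of 4 root markers 1 was tested, the silicon channel LSI1 (Os02g0745100), with 11.6, 8.900 and 9.23 CPM at 28 °C and 3.69, 4.58 and 3.81 CPM under heat. The summed root markers took 0.000769% to 0.001% of the reads at 28 °C and 0.000504% to 0.000595% under heat. The 5 shoot meristem markers took 0.00047% to 0.000578% and 0.000416% to 0.000494%, with overlapping ranges, and no gene matched the seed reserve list. In whole organs, fewer cells of a type and less RNA per cell cannot be told apart.

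Between the groups 17925 of the 25473 genes tested changed (70.4%), of which 8653 rose (34%) and 9272 fell (36.4%). Scaling by total counts gave 14369 and 5063. At least 4-fold changes numbered 1732 upward (6.8%) and 1843 downward (7.24%), and changes of at least 64-fold 150 (0.589%) and 73 (0.287%). Values of the 3 heat libraries did not overlap those of the 3 libraries at 28 °C for 18851 genes (74%). The authors' deposited table called 17061 genes, 8483 up and 8578 down. Among the genes tested here 16506 were called in both, 92.08% of the calls made here and 99.16% of the authors', and 0 had opposite signs.

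**Figure D1:**
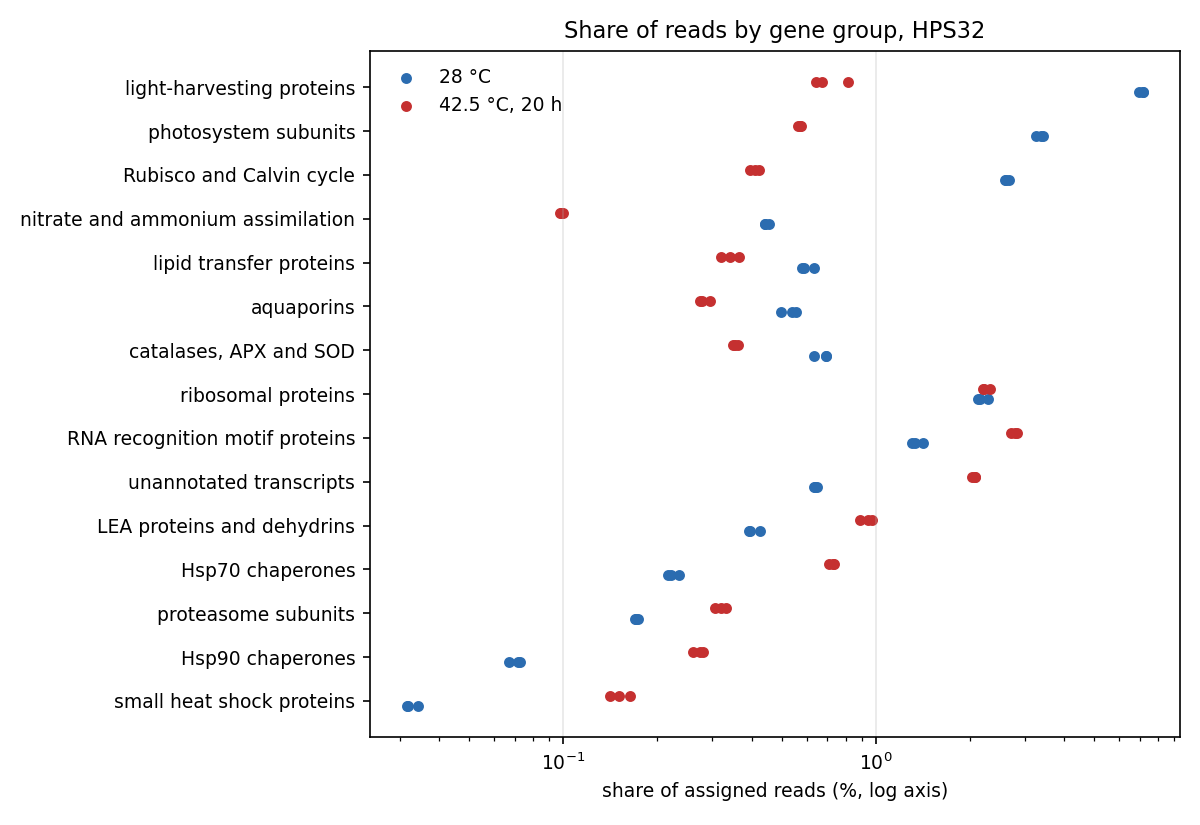
Percent of a library's assigned reads taken by each gene group, on a log axis, with 1 point per HPS32 library (blue, 28 °C; red, heat). Light-harvesting genes drop from about 7.09% to 0.71%, and chaperone groups and unannotated transcripts lie higher under heat in all 3 heat libraries. Shares are without TMM scaling.

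The folding machinery was split between induced members and members that fell. Among small heat shock proteins 15 of 29 rose and 8 fell (18 and 3 under total counts), with a median log2 fold change of 1.49, against 34% and 36.4% of all tested genes. Without replicate 3 at 28 °C that median was 0.95. Os03g0245800 had 0.439, 0.285 and 0.211 CPM at 28 °C and 289, 316 and 326 CPM under heat. Its heat values lay far above all values at 28 °C (log2 fold change 9.93 ± 0.23 SE, edgeR adjusted p = 5.97e-14). Os03g0266300, which took the most reads of the group under heat, had 35.7, 39.3 and 50.7 CPM at 28 °C and 461, 561 and 492 CPM under heat, again with no overlap (log2 fold change 3.59 ± 0.12 SE, edgeR adjusted p = 1.8e-14). Members of the cluster on chromosome 1 differed in level: Os01g0136100 reached 0.619 ± 0.261 to 46.3 ± 7.21 CPM, Os01g0136200 0.213 ± 0.185 to 6.65 ± 0.777 CPM and Os01g0135800 0.168 ± 0.0845 to 2.72 ± 0.278 CPM. These neighbours, chosen after their values were seen, are near copies of each other, so how reads were divided among them is uncertain. Os11g0244200, also chosen later, had no read at 28 °C and was at least 6.12-fold higher under heat. The members that fell were modest: Os03g0157600 fell most, with 14.9, 11.7 and 13.03 CPM at 28 °C and 5.85, 6.08 and 5.88 CPM under heat (log2 fold change -1.15 ± 0.14 SE).

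HSFs, the regulators, moved both ways. Of the 24 tested, 7 rose and 12 fell (11 and 5 under total counts), and the median log2 fold change was -0.32, or 0.24 under total counts. The shares under TMM were 29.2% and 50%, against 34% and 36.4% of all tested genes. HsfA2a (Os03g0745000), a factor of the class that sustains heat responses in Arabidopsis, had 1.17, 0.641 and 0.634 CPM at 28 °C and 31.1, 36.8 and 33.3 CPM under heat. The heat libraries were all higher, at log2 fold change 5.36 ± 0.17 SE (edgeR adjusted p = 2.33e-15). Its relative HsfA2c (Os10g0419300) rose from 28.3 ± 3.15 to 34.6 ± 0.206 CPM (log2 fold change 0.29 ± 0.09 SE). HsfA2d (Os03g0161900) went the other way: it had 149.9, 73.1 and 73.2 CPM at 28 °C and 9.95, 15.9 and 17.2 CPM under heat, with replicate 1 at 28 °C the highest (log2 fold change -2.78 ± 0.35 SE, edgeR adjusted p = 9.64e-05). Without that replicate it was at -2.35 (edgeR adjusted p = 1.41e-05). The HSF with the most reads under heat was Os02g0527300, at 60.9 ± 12.4 to 138 ± 15.4 CPM (log2 fold change 1.19 ± 0.14 SE). Os06g0565200 had no read at 28 °C and was at least 8.702-fold higher.

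Hsp90, which matures signalling proteins, moved mostly one way: 8 of 9 rose and 0 fell (9 and 0 under total counts), with a median log2 fold change of 1.45. Os09g0482100 had 266, 291 and 299.8 CPM at 28 °C and 1166, 1314 and 1192 CPM under heat. No heat value came near those at 28 °C (log2 fold change 2.10 ± 0.08 SE, edgeR adjusted p = 2.72e-14). It has near copies next to it on chromosome 9, which may share reads with it. Os04g0108101 rose from 0.765 ± 0.17 to 21.8 ± 1.82 CPM (log2 fold change 4.82 ± 0.22 SE). The family took 0.0669% to 0.0727% of the reads at 28 °C and 0.26% to 0.28% under heat.

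Of Hsp70 genes, 14 of 25 rose and 4 fell (20 and 3 under total counts), with a median log2 fold change of 0.51 (1.07 under total counts). A single gene, Os11g0703900, held most of their reads, with 1609, 1876 and 1814 CPM at 28 °C and 4638, 4771 and 4814 CPM under heat (log2 fold change 1.42 ± 0.10 SE, edgeR adjusted p = 9.38e-11). Os06g0483150 had no read in the 28 °C group and was at least 5.64-fold higher under heat. Os05g0303000 fell from 106 ± 8.73 to 48.4 ± 2.01 CPM (log2 fold change -1.14 ± 0.09 SE).

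Clp ATPases moved in both directions: 6 of 13 rose and 6 fell (6 and 3 under total counts), with a median log2 fold change of -0.41 (0.14 under total counts). HSP101 (Os05g0519700), the cytosolic disaggregase needed for survival of heat in Arabidopsis, had 5.200, 4.77 and 6.06 CPM at 28 °C and 51.7, 57.4 and 49.4 CPM under heat. The groups were far apart (log2 fold change 3.30 ± 0.12 SE, edgeR adjusted p = 9.64e-15). Os02g0564400 fell from 157 ± 2.24 to 30.3 ± 0.847 CPM (log2 fold change -2.37 ± 0.07 SE), and Os12g0230100, the member with the most reads, had 598, 608 and 639 CPM at 28 °C and 260.2, 261 and 268 CPM under heat (log2 fold change -1.23 ± 0.08 SE). Of DnaJ co-chaperones, which hand substrates to Hsp70, 30 of 80 rose and 29 fell (50 and 14 under total counts), with a median log2 fold change of -0.01 (0.56 under total counts). Their shares, 37.5% and 36.25%, were near the 34% and 36.4% of all tested genes. Os01g0730500, a DnaJ protein with a ferredoxin-like domain, fell from 107 ± 6.504 to 4.43 ± 0.258 CPM (log2 fold change -4.59 ± 0.15 SE), while Os04g0675400 with a like domain rose from 2.21 ± 0.707 to 24.1 ± 2.88 CPM (log2 fold change 3.44 ± 0.24 SE). Of the chaperonins, the barrel-shaped folding complexes, 17 of 29 rose and 7 fell (21 and 4 under total counts), with a median log2 fold change of 0.30 (0.86 under total counts). Os05g0540300, of the cpn60 family, rose by 2.04 ± 0.12, and the cpn10-type Os02g0781400 fell from 102 ± 7.201 to 19.6 ± 1.83 CPM.

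**Figure D2:**
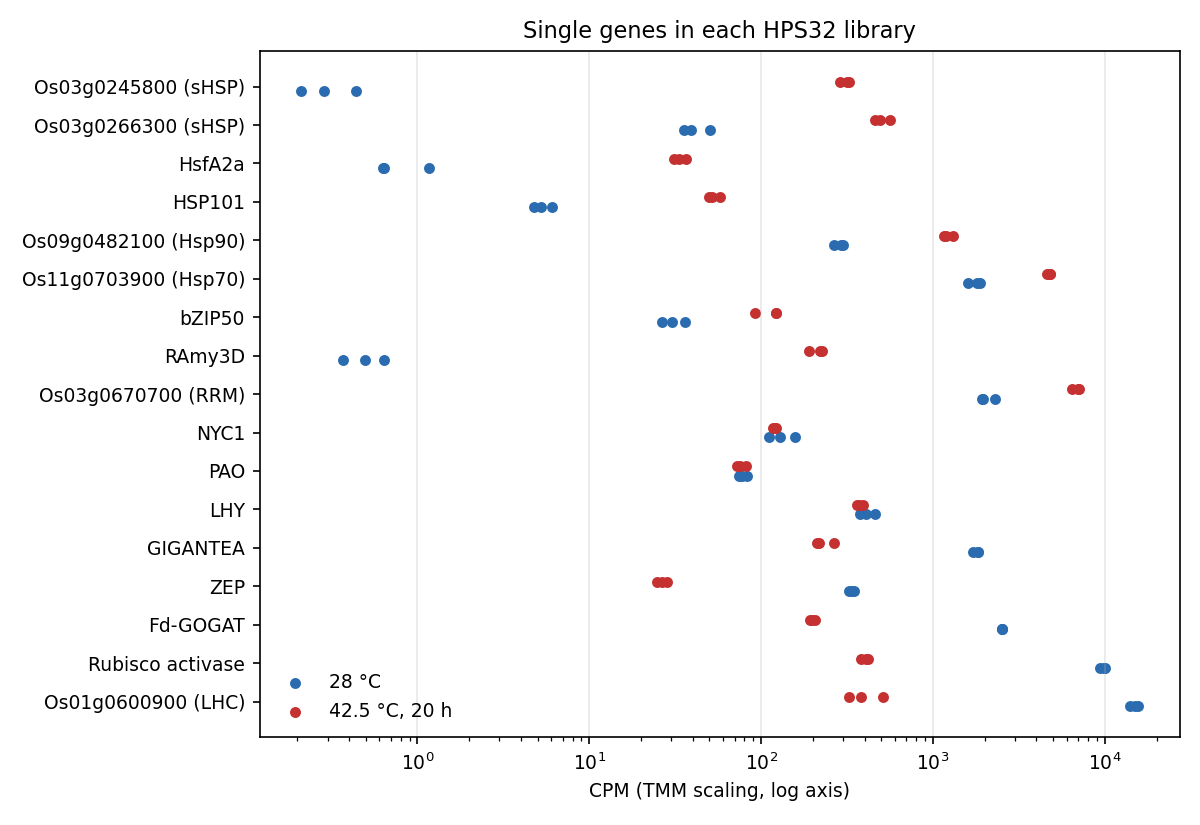
CPM of single genes in each HPS32 library on a log axis, with 1 point per library (blue, 28 °C; red, heat). Os03g0245800 and HsfA2a lie higher under heat in all 3 libraries, Rubisco activase and ZEP lie lower, and the groups do not overlap for any gene drawn except NYC1, PAO and LHY.

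Of the folding genes of the endoplasmic reticulum (ER), 9 of 16 rose and 4 fell (12 and 2 under total counts), with a median log2 fold change of 0.45 (1.01 under total counts). The transcription factor bZIP50 (Os06g0622700), which switches on the unfolded protein response, had 35.8, 30.3 and 26.6 CPM at 28 °C and 92.4, 121 and 123 CPM under heat (log2 fold change 1.86 ± 0.17 SE, edgeR adjusted p = 1.56e-06). BiP1 (Os02g0115900), the Hsp70 of the ER, rose from 70.3 ± 2.86 to 129 ± 14.3 CPM (log2 fold change 0.88 ± 0.10 SE). Of the 16 genes 3 did not pass the test. The disulfide isomerases PDIL1-1 (Os11g0199200) and PDIL2-3 (Os09g0451500) were at -0.03 ± 0.08 and -0.09 ± 0.10, and the calreticulin Os07g0246200, which had the most reads of the list, at -0.04 ± 0.07. Under total counts all 3 were called up, at 0.53 (edgeR adjusted p = 2.02e-06), 0.47 (edgeR adjusted p = 0.000208) and 0.53 (edgeR adjusted p = 1.12e-06). Der1-like Os05g0187800, of the pathway that exports misfolded proteins, fell by 1.25 ± 0.10.

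Proteasome subunits, which degrade tagged proteins, moved mostly one way: 20 of 38 rose and 1 fell (37 and 0 under total counts), with a median log2 fold change of 0.19 (0.75 under total counts). The number that fell was 0 without heat library 1 and 2 without replicate 1 or replicate 3 at 28 °C or with the replicate block. Os02g0146700 rose from 152 ± 4.17 to 283 ± 5.998 CPM, and Os08g0529100 from 4.38 ± 0.717 to 33.6 ± 1.23 CPM. Of the genes for autophagy, which recycles cell contents in vacuoles, 9 of 21 rose and 5 fell (17 and 3 under total counts), with a median log2 fold change of -0.09 (0.47 under total counts). The Apg6 gene Os03g0644000 rose from 25.7 ± 2.01 to 56.4 ± 1.23 CPM (log2 fold change 1.13 ± 0.09 SE), and Os12g0446700, an ATG101 gene, fell from 30.00 ± 3.61 to 12.2 ± 0.369 CPM. Among the largest gains in read number were those of polyubiquitin genes. Os02g0161900 had 964, 1050.4 and 1025 CPM at 28 °C and 2896, 3315 and 3047 CPM under heat, and Os06g0681400 rose from 732 ± 57.4 to 1543 ± 51.8 CPM. Both genes encode repeats of the same protein, so reads may be split between them.

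Photosynthesis genes fell together. Among light-harvesting proteins, which bind chlorophyll around both photosystems, 3 of 20 rose and 16 fell (4 and 16 under total counts), with a median log2 fold change of -3.37. Os01g0600900, which took the most reads of any gene that fell, had 15584, 14907 and 14074 CPM at 28 °C and 381, 323 and 514 CPM under heat. Every heat value was far below the lowest at 28 °C. Os01g0720500 had 4178, 4321 and 4063 CPM at 28 °C and 65.3, 50.1 and 66.4 CPM under heat, the largest fall of the group (log2 fold change -6.11 ± 0.26 SE, edgeR adjusted p = 2.49e-09). The 3 that rose were genes with few reads: Os07g0178800 went from 2.54 ± 0.719 to 6.42 ± 0.492 CPM (log2 fold change 1.34 ± 0.28 SE), Os04g0690800 from 8.22 ± 1.28 to 17.2 ± 1.15 CPM and Os01g0246400 from 4.81 ± 1.19 to 8.15 ± 1.75 CPM, the latter pair chosen after their values were seen. The call of Os01g0246400 was lost without replicate 3 at 28 °C (edgeR adjusted p = 0.0833) and without heat library 3 (edgeR adjusted p = 0.0844). The group's share of reads was 7.16%, 7.15% and 6.95% at 28 °C and 0.673%, 0.644% and 0.814% under heat.

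Of photosystem subunits, 0 of 39 rose and 35 fell (2 and 32 under total counts), with a median log2 fold change of -1.95. PsbO (Os01g0501800), the protein that steadies the manganese cluster of water splitting, had 6158, 6326 and 6427 CPM at 28 °C and 1032, 982 and 1045 CPM under heat (log2 fold change -2.63 ± 0.11 SE, edgeR adjusted p = 7.26e-14). The photosystem II subunit gene Os05g0508900 fell from 128 ± 8.41 to 4.87 ± 0.485 CPM (log2 fold change -4.72 ± 0.11 SE). Of 7 tested genes encoded in the plastid itself, 0 rose and 3 fell (1 and 3 under total counts), with psaC (listed as gene-psaC) at -3.62 ± 0.25. The number that fell was 6 without heat library 1 and 5 without replicate 1 or 2 at 28 °C or heat library 2 or 3. Plastid reads were few, at 0.00292% to 0.00353% of a library at 28 °C.

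All 17 tested genes of Rubisco and the Calvin cycle, which fixes carbon dioxide into sugar, fell (median log2 -3.14, 16 under total counts). Rubisco activase (Os11g0707000), which frees Rubisco from blocking sugars and is itself unstable in heat, had 9314, 9878 and 10067 CPM at 28 °C and 407, 383 and 418 CPM under heat. The heat libraries all lay lower (log2 fold change -4.60 ± 0.13 SE, edgeR adjusted p = 4.6e-16). Rubisco small subunit Os12g0274700 had 1819, 2011 and 1934 CPM at 28 °C and 174, 182 and 200.2 CPM under heat, and Os12g0292400 fell from 1233 ± 50.9 to 52.99 ± 4.37 CPM. Because the Rubisco small subunit genes are near copies, their separate values are uncertain. Glyceraldehyde-3-phosphate dehydrogenase subunits GAPB (Os03g0129300) and GAPA (Os04g0459500) fell, at log2 fold changes of -4.06 ± 0.12 and -2.93 ± 0.12. Log2 fold changes were -3.25 ± 0.10 for sedoheptulose bisphosphatase (Os04g0234600), -3.14 ± 0.10 for plastid fructose bisphosphatase (Os03g0267300) and -3.01 ± 0.10 for phosphoribulokinase (Os02g0698000). Phosphoglycerate kinase (Os05g0496200) was at -3.70 ± 0.11, ribulose-phosphate epimerase (Os03g0169100) at -3.05 ± 0.08 and the aldolase Os11g0171300 at -2.44 ± 0.11. The smaller falls were those of triosephosphate isomerase (Os09g0535000, -1.97 ± 0.08) and of the transketolases Os06g0133800 (-1.44 ± 0.09) and Os04g0266900 (-0.51 ± 0.22, edgeR adjusted p = 0.047). The last was at 0.05 (edgeR adjusted p = 0.837) under total counts, not called, and its call was also lost in 5 of 6 omissions of a single library (edgeR adjusted p = 0.0697 to 0.254). It was likewise not called with RLE scaling (edgeR adjusted p = 0.0643), DESeq2 (adjusted p = 0.0704), limma-voom (adjusted p = 0.0669) or the HPS32 libraries alone (edgeR adjusted p = 0.0767).

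Of the genes that build chlorophyll all but 1 fell, while those that break it down moved both ways. In synthesis, 1 of 11 rose and 10 fell (1 and 7 under total counts), with a median log2 fold change of -1.41 (-0.85 under total counts). Uroporphyrinogen decarboxylase (Os03g0337600) had 481, 423 and 439 CPM at 28 °C and 63.3, 65.99 and 60.8 CPM under heat (log2 fold change -2.82 ± 0.08 SE), and the magnesium chelatase gene Os03g0323200 fell from 1841 ± 109 to 388 ± 26.7 CPM. Of 5 breakdown genes, 2 rose and 1 fell (4 and 1 under total counts); without replicate 1 at 28 °C 2 fell, and without replicate 2 or 3 at 28 °C or heat library 2 or 3 only 1 rose. The stay-green gene SGR (Os09g0532000), which starts chlorophyll breakdown, had 20.2, 17.4 and 12.3 CPM at 28 °C and 34.8, 31.3 and 31.6 CPM under heat (log2 fold change 0.97 ± 0.21 SE). The chlorophyll b reductase NYC1 (Os01g0227100) had 111, 128 and 157 CPM at 28 °C and 119.6, 117 and 123 CPM under heat, with overlapping groups (log2 fold change -0.14 ± 0.10 SE, edgeR adjusted p = 0.247). Without replicate 1 at 28 °C NYC1 was at -0.25 (edgeR adjusted p = 0.0295) and called. Its partner NOL (Os03g0654600) fell from 52.03 ± 4.95 to 25.7 ± 2.08 CPM. Pheophorbide a oxygenase PAO (Os03g0146400) was at -0.04 ± 0.07, not called. Under total counts NYC1 and PAO were called up, at 0.42 (edgeR adjusted p = 0.00118) and 0.52 (edgeR adjusted p = 1.53e-06). The hydrolase Os06g0354700 rose by 0.20 ± 0.08, a call lost in 4 of 6 omissions of a library.

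Nitrogen assimilation shares the reducing power of the chloroplast, and 2 of 10 rose and 7 fell (3 and 6 under total counts), with a median log2 fold change of -2.23. Ferredoxin-dependent glutamate synthase (Os07g0658400) had 2505, 2512 and 2522 CPM at 28 °C and 199, 193 and 205 CPM under heat (log2 fold change -3.66 ± 0.10 SE, edgeR adjusted p = 3.33e-16). Plastid glutamine synthetase GS2 (Os04g0659100) fell (log2 -3.07 ± 0.10), as did nitrate reductase NIA1 (Os08g0468100, -2.92 ± 0.15) and the nitrate reductase genes Os02g0770800 (-2.93 ± 0.19) and Os08g0468700 (-1.55 ± 0.45). Under total counts Os08g0468700 was at -0.99 (edgeR adjusted p = 0.0661), not called. The NADH-dependent glutamate synthases went opposite ways: Os01g0681900 rose from 10.2 ± 0.966 to 23.3 ± 1.16 CPM, and Os05g0555600 fell from 133 ± 16.04 to 5.58 ± 0.868 CPM. Cytosolic glutamine synthetase GS1;1 (Os02g0735200) was at 0.10 ± 0.07 (edgeR adjusted p = 0.186). GS1;1 was called up under total counts (0.66, edgeR adjusted p = 4.5e-08), with DESeq2 (0.14, adjusted p = 0.0463) and with the HPS32 libraries alone (0.16, edgeR adjusted p = 0.0492). Os03g0223400, another glutamine synthetase, fell by 1.47 ± 0.16. The nitrite reductase gene Os01g0357100 rose by 0.50 ± 0.15, a call lost without heat library 2.

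Among the enzymes that remove reactive oxygen, 3 of 16 rose and 11 fell (7 and 8 under total counts), with a median log2 fold change of -0.91 (-0.35 under total counts). Catalases CatA (Os02g0115700) and CatC (Os03g0131200), the latter of photorespiring leaf cells, fell. CatA had 2915, 3485 and 3488 CPM at 28 °C and 534, 489 and 627 CPM under heat (log2 fold change -2.58 ± 0.12 SE), and CatC had 1165, 1226 and 1234 CPM at 28 °C and 119, 136 and 131 CPM under heat (log2 fold change -3.23 ± 0.13 SE, edgeR adjusted p = 1.83e-13). CatB (Os06g0727200) went from 199 ± 18.2 to 230.1 ± 10.9 CPM (log2 fold change 0.21 ± 0.08 SE), a call lost without replicate 1 at 28 °C and under other omissions (edgeR adjusted p = 0.0626 to 0.128 in 3 of 6 omissions). The cytosolic ascorbate peroxidases parted: APX1 (Os03g0285700) had 216, 247 and 277 CPM at 28 °C and 636, 728 and 657 CPM under heat (log2 fold change 1.45 ± 0.09 SE), and APX2 (Os07g0694700) fell from 449.7 ± 38.5 to 205 ± 7.98 CPM. Os04g0602100, another peroxidase of this list, fell most (-3.36 ± 0.10). Copper and zinc superoxide dismutases also parted, with Os07g0665200 up (log2 0.71 ± 0.10) and Os03g0351500 (-1.38 ± 0.07) and Os08g0561700 (-0.69 ± 0.08) down. Under total counts Os08g0561700 was at -0.13 (edgeR adjusted p = 0.138), not called. Of secreted class III peroxidases, which act in cell walls, 8 of 82 rose and 54 fell (13 and 45 under total counts), with a median log2 fold change of -1.17 (-0.61 under total counts), and Os02g0240300 fell from 53.5 ± 1.802 to 0.472 ± 0.283 CPM. Of the glutathione S-transferases, which join glutathione to toxic compounds, 18 of 56 rose and 26 fell (28 and 19 under total counts), with a median log2 fold change of -0.24 (0.32 under total counts). Their shares were 32.1% and 46.4%, against 34% and 36.4% of all tested genes.

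**Figure D3:**
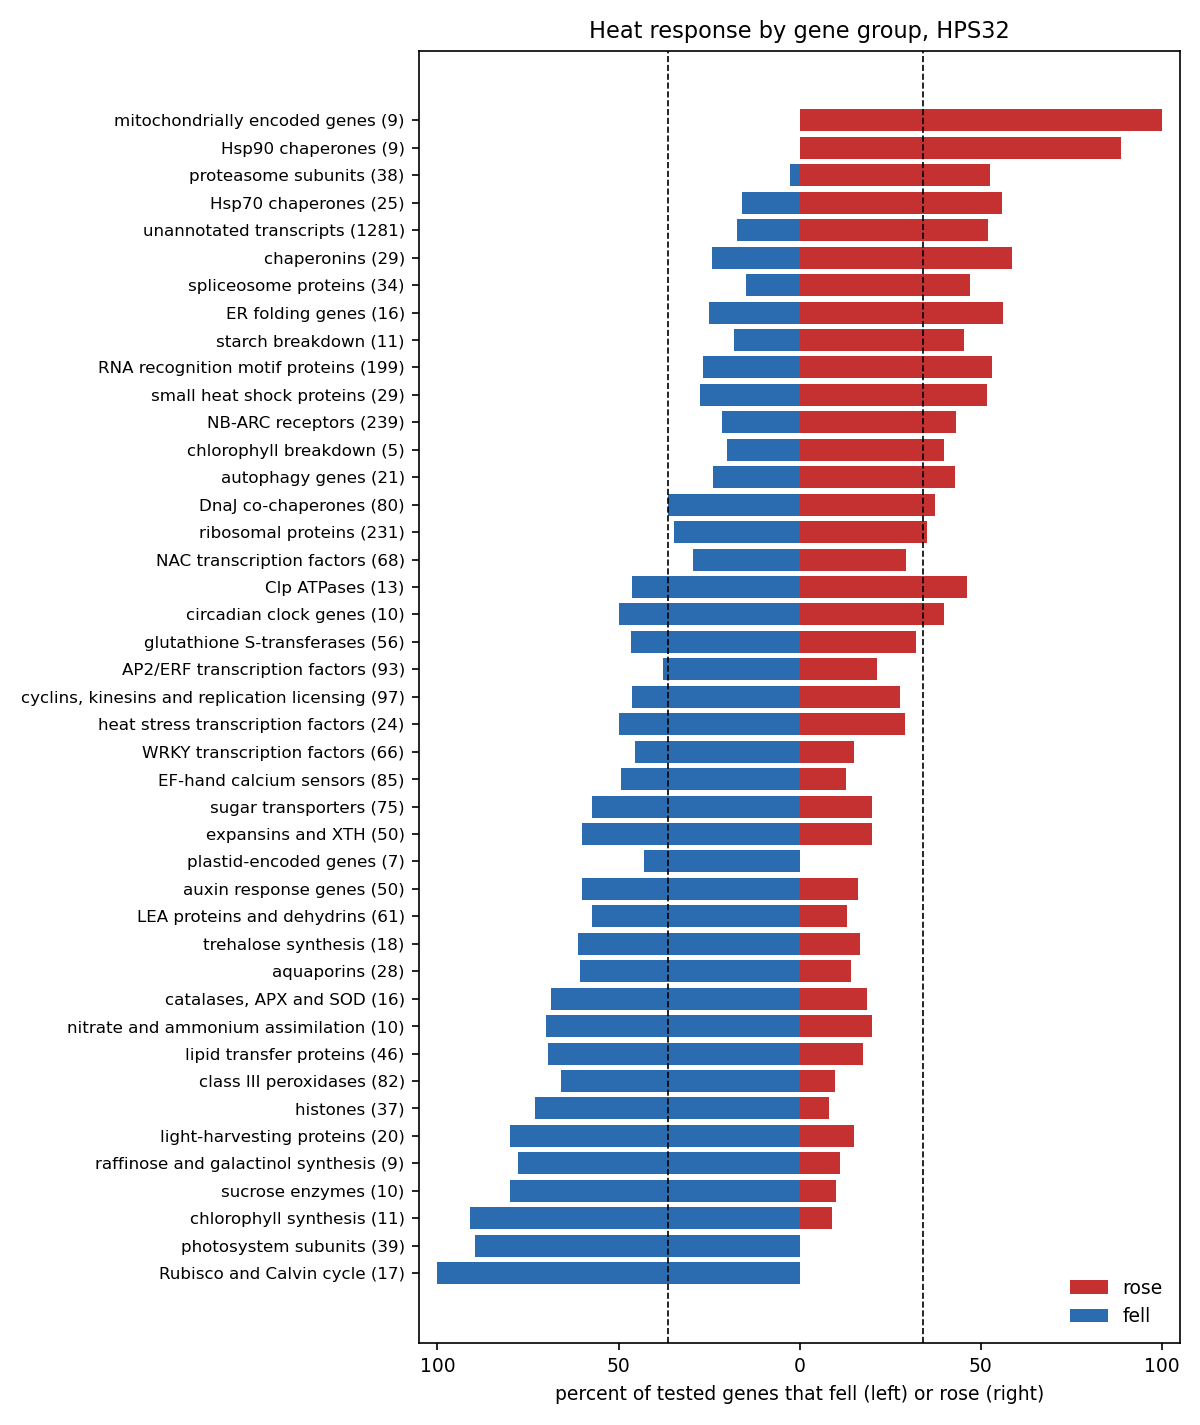
Percent of the tested genes of each gene group that rose (red, to the right) or fell (blue, to the left) at an edgeR adjusted p under 0.05, with the number tested. Dashed lines mark the 34% and 36.4% of all tested genes, and photosynthesis groups lie at the falling end and Hsp90, mitochondrial and unannotated genes at the rising end. Mitochondrial and unannotated genes could pass the low-count filter through heat reads.

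Carbohydrate genes changed in many members, as did 70.4% of all tested genes (34% up and 36.4% down). Of starch-degrading genes, 5 of 11 rose and 2 fell (7 and 0 under total counts), with a median log2 fold change of 0.52 (1.08 under total counts). The alpha-amylase RAmy3D (Os08g0473900), a gene of sugar-starved rice cells, had 0.366, 0.641 and 0.493 CPM at 28 °C and 225, 219 and 190.5 CPM under heat (log2 fold change 8.70 ± 0.21 SE, edgeR adjusted p = 2.81e-15). Among sucrose enzymes 1 of 10 rose and 8 fell (2 and 7 under total counts), with a median log2 fold change of -1.74. The sucrose synthase SUS1 (Os03g0401300) fell from 221 ± 3.097 to 92.1 ± 3.89 CPM, and a sucrose phosphatase gene (Os08g0301500) rose from 94.2 ± 1.97 to 123 ± 2.32 CPM. Of the genes of trehalose synthesis, which makes a sugar signal, 3 of 18 rose and 11 fell (6 and 9 under total counts), with a median log2 fold change of -0.85 (-0.29 under total counts). TPP2 (Os10g0553300), a trehalose phosphatase, had 6.88, 4.56 and 3.94 CPM at 28 °C and 14.2, 8.95 and 10.8 CPM under heat (log2 fold change 1.14 ± 0.19 SE), and Os05g0128900 dropped with 136, 74.6 and 29.3 CPM at 28 °C and 0.718, 0.267 and 1.03 CPM under heat (log2 fold change -6.87 ± 0.85 SE). Values of Os05g0128900 at 28 °C were spread, and all exceeded those under heat.

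Raffinose-type sugars protect cells in drought and cold, and 1 of 9 rose and 7 fell (2 and 2 under total counts), with a median log2 fold change of -0.62 (-0.05 under total counts). The galactinol synthases GolS1 (Os03g0316200) and GolS2 (Os07g0687900) fell from 229 ± 31.05 to 38.6 ± 6.65 CPM and from 78.9 ± 20.7 to 15.6 ± 1.32 CPM. Os06g0172800, a raffinose synthase-type gene, rose from 31.7 ± 7.31 to 134 ± 4.78 CPM (log2 fold change 2.08 ± 0.13 SE). Of the sugar transporters, 15 of 75 rose and 43 fell (24 and 34 under total counts), with a median log2 fold change of -0.66 (-0.10 under total counts), with Os12g0512100 up by 3.46 ± 0.25.

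Genes for making and degrading the stress hormone abscisic acid were lower on both sides of its metabolism: 0 of 8 rose and 6 fell (5 under total counts). Zeaxanthin epoxidase ZEP (Os04g0448900), which makes the precursor, had 348, 323 and 332 CPM at 28 °C and 26.4, 24.8 and 28.4 CPM under heat (log2 fold change -3.66 ± 0.10 SE, edgeR adjusted p = 2.61e-16). The carotenoid-cleaving dioxygenase gene Os02g0704000 fell from 79.9 ± 8.99 to 3.800 ± 1.09 CPM, while the cleaving enzyme NCED3 (Os03g0645900) was at 0.00 ± 0.41 and Os07g0154100 at 0.23 ± 0.38, both not called. The hydroxylases that degrade the hormone also fell, ABA8ox3 (Os09g0457100) from 4.84 ± 0.691 to 0.123 ± 0.0827 CPM and ABA8ox1 (Os02g0703600) from 7.27 ± 3.89 to 1.54 ± 0.311 CPM. ABA8ox2 (Os08g0472800) fell by 0.71 ± 0.23, a call lost under total counts (-0.14, edgeR adjusted p = 0.57) and without replicate 3 at 28 °C (-0.39, edgeR adjusted p = 0.122). The short-chain dehydrogenase gene Os03g0810800 fell by 1.43 ± 0.28.

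LEA proteins and dehydrins, which protect drying cells, mostly fell while their share of reads rose. Of the list 8 of 61 rose and 35 fell (17 and 23 under total counts), with a median log2 fold change of -0.93 (-0.37 under total counts), and its reads rose from 0.393% to 0.425% to 0.888% to 0.975%. That share was carried by Os01g0256500, with 1778, 1586 and 1685 CPM at 28 °C and 6009.7, 5892 and 5442 CPM under heat (log2 fold change 1.78 ± 0.09 SE). Of the auxin response genes, 8 of 50 rose and 30 fell (19 and 21 under total counts), with a median log2 fold change of -0.56 (0.00 under total counts). The AUX/IAA repressor Os05g0230700 fell from 741 ± 3.72 to 179.7 ± 11.7 CPM.

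All 10 clock genes of the list were tested, and 4 rose and 5 fell (5 and 5 under total counts) (5 and 5 under total counts). GIGANTEA (Os01g0182600), a gene that peaks near dusk, had 1817, 1833 and 1703 CPM at 28 °C and 211, 217 and 264 CPM under heat (log2 fold change -2.95 ± 0.09 SE, edgeR adjusted p = 1.77e-15). Of the pseudo-response regulators, PRR37 (Os07g0695100) and PRR73 (Os03g0284100) fell, at log2 fold changes of -4.19 ± 0.10 and -2.74 ± 0.09, and PRR95 (Os09g0532400) fell from 389.8 ± 22.5 to 138 ± 9.18 CPM. TOC1 (Os02g0618200) rose from 69.7 ± 4.48 to 99.98 ± 6.99 CPM, and PRR59 (Os11g0157600) by 0.23 ± 0.07, the latter call being lost without heat library 2. LUX (Os01g0971800), of the evening complex, had 1.76, 2.78 and 2.61 CPM at 28 °C and 26.2, 27.8 and 28.8 CPM under heat (log2 fold change 3.53 ± 0.16 SE). ELF3-1 (Os06g0142600) fell by 1.15 ± 0.08, and ELF3-2 (Os01g0566100) rose by 0.35 ± 0.09. The morning gene LHY (Os08g0157600) had 406, 459 and 378 CPM at 28 °C and 394, 362 and 369.7 CPM under heat, with overlapping groups (log2 fold change -0.14 ± 0.10 SE), and was not called, but under total counts it was called up at 0.42 (edgeR adjusted p = 0.000403). The labels give no hour of sampling for either temperature, so time of day and heat cannot be told apart in these genes.

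Genes of the cell wall and surface fell more often than they rose. Of the expansins and xyloglucan endotransglycosylases, which loosen walls, 10 of 50 rose and 30 fell (10 and 22 under total counts), with a median log2 fold change of -0.94 (-0.38 under total counts). Os06g0335900 had 0 reads under heat and was at least 47.97-fold lower, and the expansin Os03g0645000 rose from 11.96 ± 2.09 to 51.4 ± 8.61 CPM. Of the lipid transfer proteins, carriers that supply the cuticle, 8 of 46 rose and 32 fell (11 and 24 under total counts), with a median log2 fold change of -1.03 (-0.47 under total counts), and 5 rose without replicate 3 at 28 °C. Os11g0115350 had 2127, 2538 and 2164 CPM at 28 °C and 729.6, 595 and 759 CPM under heat (log2 fold change -1.71 ± 0.19 SE). Of the aquaporins, the membrane water channels, 4 of 28 rose and 17 fell (9 and 16 under total counts), with a median log2 fold change of -1.31 (-0.75 under total counts), and Os06g0336200 fell from 2424 ± 237 to 974 ± 43.2 CPM.

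Of the histones, made chiefly while DNA is copied, 3 of 37 rose and 27 fell (10 and 22 under total counts), with a median log2 fold change of -1.54 (-0.98 under total counts). The linker histone Os06g0130800 had 326, 358 and 390.1 CPM at 28 °C and 14.7, 18.9 and 17.6 CPM under heat, with no overlap (log2 fold change -4.39 ± 0.11 SE, edgeR adjusted p = 6.22e-17). Of the cyclins, kinesins and replication licensing genes, 27 of 97 rose and 45 fell (40 and 24 under total counts), with a median log2 fold change of -0.38 (0.19 under total counts). Os03g0152900, a kinesin-type gene with armadillo repeats, rose from 2.08 ± 0.464 to 24.1 ± 1.81 CPM.

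RNA-binding proteins rose more often than they fell. Of proteins with an RNA recognition motif 106 of 199 rose and 53 fell (156 and 19 under total counts), with a median log2 fold change of 0.28 (0.84 under total counts), and their reads went from 1.303% to 1.41% to 2.71% to 2.82%. Os03g0670700 had the largest gain in mean CPM of all genes with a description, with 1926, 1959 and 2290.1 CPM at 28 °C and 7119, 6993 and 6443 CPM under heat (log2 fold change 1.73 ± 0.10 SE, edgeR adjusted p = 7.81e-12). Os08g0126700 of the same family fell from 555 ± 27.4 to 40.3 ± 1.14 CPM. Of the spliceosome proteins, 16 of 34 rose and 5 fell (30 and 2 under total counts), with a median log2 fold change of 0.32 (0.88 under total counts). Without replicate 1 at 28 °C that median was 0.20, and 3 fell without heat library 1. Of ribosomal proteins 81 of 231 rose and 80 fell (161 and 35 under total counts), with a median log2 fold change of 0.03 (0.60 under total counts). These shares, 35.1% and 34.6%, were near the 34% and 36.4% of all tested genes. Without TMM scaling, their share of reads overlapped between 28 °C (2.12% to 2.29%) and heat (2.204% to 2.33%). Os03g0856500, an S30EA-type ribosome protein, fell from 1809.7 ± 157 to 211 ± 1.79 CPM (log2 fold change -3.10 ± 0.11 SE). Os06g0339800, of the L7e type, rose from 1.37 ± 0.408 to 7.08 ± 0.719 CPM. TCTP (Os11g0660500), a growth-related protein of the cytosol, had 957, 952 and 1057 CPM at 28 °C and 3143, 3649 and 3281 CPM under heat (log2 fold change 1.76 ± 0.09 SE).

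Transcription factor families moved both ways, as did all tested genes, of which 34% rose and 36.4% fell. Among NAC genes, which regulate ageing and stress, 20 of 68 rose and 20 fell (39 and 8 under total counts), with a median log2 fold change of 0.00 (0.57 under total counts). Both shares, 29.4% and 29.4%, were below those of all tested genes. Os01g0884300 had 228, 184 and 229 CPM at 28 °C and 413, 449 and 436 CPM under heat (log2 fold change 1.02 ± 0.09 SE), and Os01g0862800 fell from 32.6 ± 8.15 to 0.905 ± 0.309 CPM. Without replicate 1 at 28 °C Os01g0862800 was at a log2 fold change of -5.20 (edgeR adjusted p = 1.41e-10). Of WRKY genes 10 of 66 rose and 30 fell (22 and 17 under total counts), with a median log2 fold change of -0.46 (0.10 under total counts), and without replicate 1 at 28 °C 11 rose and 28 fell, at a median of -0.24. The WRKY gene with the most reads, Os05g0343400, had 639.8, 298 and 348 CPM at 28 °C and 302, 274 and 244 CPM under heat, and was not called (log2 fold change -0.65 ± 0.32 SE, edgeR adjusted p = 0.101). It was at -0.86 (edgeR adjusted p = 0.0458) without replicate 2 at 28 °C and at -0.57 (edgeR adjusted p = 0.000116) with the replicate number as a block among the 28 °C libraries, called in both. Of AP2/ERF genes 20 of 93 rose and 35 fell (34 and 22 under total counts), with a median log2 fold change of -0.42 (0.14 under total counts), and without replicate 1 22 rose and 29 fell. Of the EF-hand calcium sensors, 11 of 85 rose and 42 fell (32 and 23 under total counts), with a median log2 fold change of -0.52 (0.04 under total counts), and without replicate 1 11 rose and 41 fell. NB-ARC immune receptors were more often up: 103 of 239 rose and 51 fell (158 and 22 under total counts), with a median log2 fold change of 0.41 (0.97 under total counts).

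Among the largest single changes, the C1-domain gene Os08g0404900 had no read at 28 °C and was at least 40.8-fold higher under heat. In all, 119 genes with no read at 28 °C were called up, 50 of them unannotated transcripts, and 25 with no read under heat were called down. The DUF1338 gene Os10g0463800 had 37.4, 45.2 and 57.9 CPM at 28 °C and 902, 989 and 767 CPM under heat (log2 fold change 4.24 ± 0.15 SE). The SUZ-domain gene Os05g0411600 rose from 299 ± 34.4 to 1021 ± 56.7 CPM, and Os04g0659300, a salt-stress-type gene, from 168 ± 38.2 to 913 ± 97.5 CPM. The methyltransferase gene Os03g0843800 had 127, 117 and 128 CPM at 28 °C and 0.154, 0.0533 and 0.155 CPM under heat (log2 fold change -9.91 ± 0.20 SE, edgeR adjusted p = 1.63e-17).

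Transcripts that the authors added to the annotation rose in a larger share than the 34% of all tested genes: 666 of 1281 rose and 221 fell (870 and 128 under total counts), with a median log2 fold change of 0.76 (1.32 under total counts). Such transcripts can enter the list, and pass the low-count filter, through heat reads: 50 had no read at 28 °C and were called up. What part of the excess over 34% comes from this was not tested. The one with the most reads, on the minus strand of chromosome 4 from 27165419 to 27177506 in the deposited coordinates (genome build not given in the sources used here), had 7.104, 9.97 and 10.4 CPM at 28 °C and 1511, 1284 and 1423 CPM under heat. All heat values stood above those at 28 °C (log2 fold change 7.26 ± 0.33 SE, edgeR adjusted p = 2.81e-08). Of 96 listed genes with a mitochondrial location only 9 passed the low-count filter, and all 9 rose (median log2 3.79). The 96 together took 0.000193% to 0.00022% of the reads at 28 °C, so genes could pass the filter through heat reads. The 9 of 9 is therefore not to be set against the 34%. The cytochrome b gene cob (gene-cob) went from 0.24 ± 0.115 to 3.41 ± 0.902 CPM and cox2 (gene-cox2) from 0.0956 ± 0.109 to 1.42 ± 0.308 CPM. Of 41 tested small nucleolar RNA genes 63.4% rose and 4.88% fell under TMM scaling. These genes too could pass the filter through heat reads.

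Levels and length went with direction. In the lowest of 10 classes of mean level 30.97% rose and 19.2% fell and in the highest 22.9% rose and 60.6% fell. By gene length, 28.5% rose and 35.6% fell in the shortest class and 45.2% rose and 29.5% fell in the longest. Whether either measure takes part in the group results was not tested. By chromosome the share that rose stayed between 32.8% and 36.7%.

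**Figure D4:**
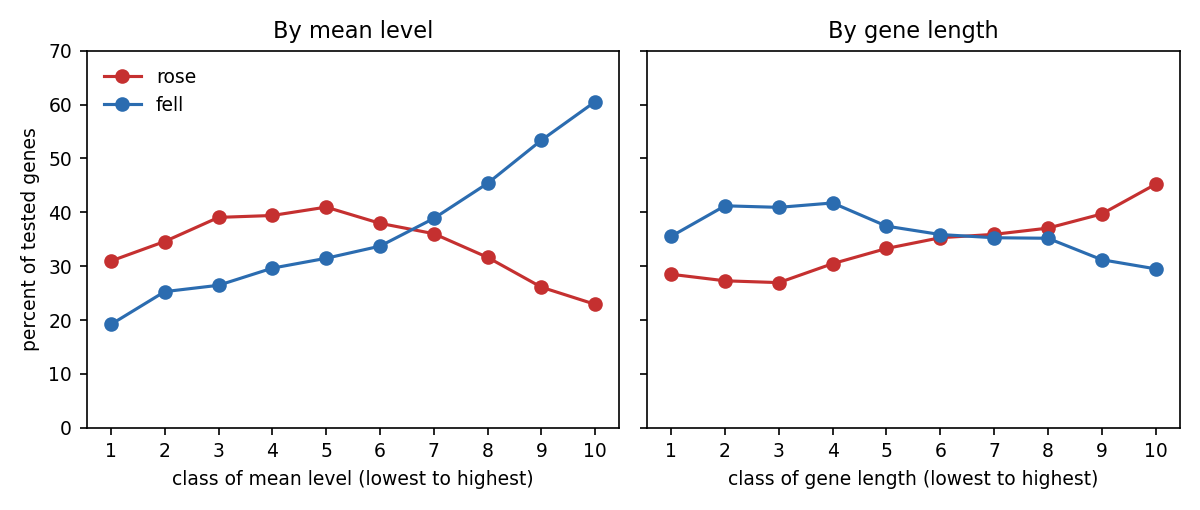
Percent of tested genes that rose (red) or fell (blue) in 10 classes of mean expression level and of gene length, each of about 2550 genes. The share that fell climbs from 19.2% to 60.6% with level, and the share that rose climbs from 28.5% to 45.2% with length.

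The response of HPS32 was set against that of HJX by a test of the difference itself, which uses no shared libraries. Of the tested genes 7473 (29.3%) differed, 3393 higher in HPS32 (13.3%) and 4080 lower (16%). Among these, 4140 moved the same way with a smaller change in HPS32, 1452 moved the same way with a larger one and 1881 had opposite signs, of which 521 were called in both lines. Across the 25473 genes the log2 fold changes of the lines correlated with Pearson r = 0.893 and Spearman rho = 0.875, over genes that are not independent replicates.

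Photosynthesis genes fell less in HPS32. The difference was called in 16 of 20 light-harvesting genes, all 16 higher in HPS32, with a median log2 fold change of -3.37 against -4.48 in HJX. Of 39 photosystem genes 24 were higher and 1 lower, and of 17 Calvin cycle genes 10 were higher and 0 lower. The lower photosystem gene was not called in 8 of 12 omissions of a single library. Rubisco activase (Os11g0707000) was at -4.60 ± 0.13 in HPS32 and -5.55 ± 0.14 in HJX (difference 0.95 ± 0.16, edgeR adjusted p = 0.000223). Ribosomal proteins had 137 of 231 genes higher in HPS32 and 5 lower, with medians of 0.03 and -0.42. Total-count scaling moved the median difference over all genes to 0.28, and then 17 and 0, 27 and 0, 14 and 0 and 183 and 1 of these 4 groups were called higher and lower, in that order.

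Several groups with induced members had lower responses in HPS32 and others did not, and for RNA recognition motif proteins the balance turned under total counts. Of small heat shock proteins 8 of 29 had a lower response and 1 a higher one, of HSFs 9 of 24 lower and 0 higher, and of RNA recognition motif proteins 67 of 199 lower and 15 higher. Without replicate 1 at 28 °C 2 small heat shock protein genes were higher, and 1 HSF was higher without HJX replicate 1 at 28 °C or HJX heat library 3. Under total counts these were 4 and 1, 6 and 1 and 23 and 42 lower and higher, in that order. Of other groups in which more genes rose than fell, some also went lower. Hsp90 had 4 of 9 lower and 0 higher, proteasome subunits 6 of 38 and 0, and autophagy genes 10 of 21 and 1. Spliceosome proteins had 10 of 34 lower and 3 higher, and DnaJ co-chaperones 25 of 80 and 7. Others did not: chaperonins had 2 of 29 lower and 8 higher, NB-ARC receptors 6 of 239 lower and 27 higher, and Hsp70 genes 3 of 25 lower and 3 higher. Over all tested genes 16% were lower and 13.3% higher. The Hsp70 counts and the higher count of NB-ARC receptors were near these shares. Counts of these further groups are under TMM scaling only. The summed share of reads of small heat shock proteins under heat was 0.152 ± 0.0114% in HPS32 and 0.145 ± 0.0045% in HJX. These shares are without TMM scaling, and TMM factors under heat were 1.26 to 1.28 in HPS32 and 1.06 to 1.07 in HJX. The order of the shares is therefore not to be set against the counts above. The single genes that follow were chosen after their values were seen, except the chitinase-type and decarboxylase genes. HsfA2a (Os03g0745000) was at 5.36 ± 0.17 in HPS32 and 6.86 ± 0.17 in HJX (difference -1.49 ± 0.33, edgeR adjusted p = 0.00204). TPP2 (Os10g0553300) was at 1.14 ± 0.19 against 4.75 ± 0.18 (difference -3.60 ± 0.27, edgeR adjusted p = 6.47e-07). RAmy3D (Os08g0473900) was at 8.70 ± 0.21 against 10.84 ± 0.21 (difference -2.14 ± 0.46, edgeR adjusted p = 0.00254). Its 28 °C groups held 21 reads in HPS32 and 33 in HJX, so its errors within a line are likely too small. NYC1 (Os01g0227100) and PAO (Os03g0146400) were at 0.97 ± 0.10 and 0.71 ± 0.07 in HJX, with differences of -1.11 ± 0.15 and -0.75 ± 0.10. The largest differences included chitinase-type genes Os11g0701000 and Os11g0701100, neighbours on chromosome 11. Os11g0701100 had 1.17, 1.99 and 1.69 CPM at 28 °C and 1.03, 1.28 and 0.876 CPM under heat in HPS32 and was at 4.28 ± 0.26 in HJX (difference -4.89 ± 0.41, edgeR adjusted p = 6.29e-08). Its change within HPS32 was not called, except without replicate 1 at 28 °C (-0.80 (edgeR adjusted p = 0.0351)). On the other side, the decarboxylase gene Os08g0140300 had 0.0732, 0.427 and 0.493 CPM at 28 °C and 40.2, 32.2 and 40.3 CPM under heat and was at 6.78 ± 0.26 in HPS32 against 3.53 ± 0.22 in HJX (difference 3.25 ± 0.43, edgeR adjusted p = 1.92e-05).

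**Figure D5:**
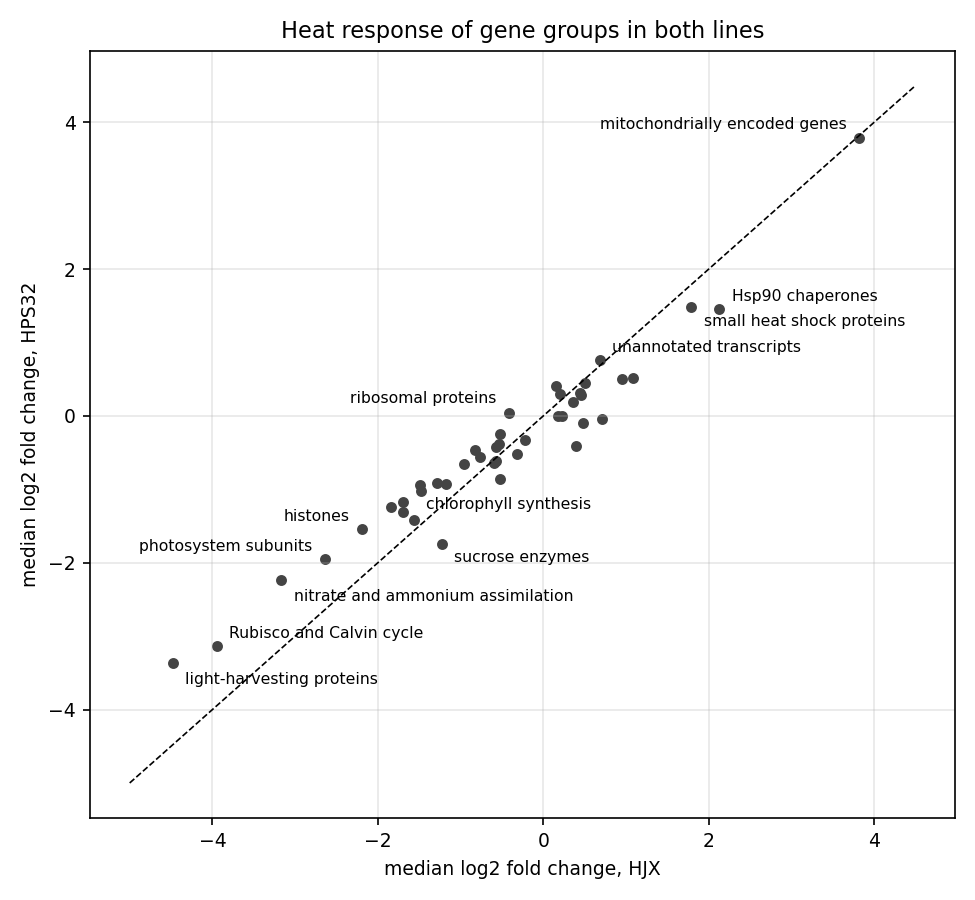
Median log2 fold change under heat of each gene group in HJX (horizontal axis) and HPS32 (vertical axis), with the line of equality dashed. Light-harvesting and Calvin cycle genes lie above the line, at -3.37 and -3.14 in HPS32 against -4.48 and -3.95 in HJX.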

How the data were processed

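RNA sequencing libraries of rice aerial organs were compared in 4 groups of 3, from the lines HPS32 and HJX at 28 °C and after heat. The deposited counts are whole reads per gene, which the authors aligned with HISAT2 2.0.5 and counted with featureCounts 1.5.0-p3, per the submitters' processing notes. The 12 deposited columns of FPKM were not used. The authors also deposited the log2 fold changes and p-values of their own comparison, for which those notes name DESeq2 1.20.0. Genome build, annotation release and strand setting are not given in the sources used here.

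Genes kept by filterByExpr were tested in edgeR 4.0.16 (R 4.3.3) with TMM scaling and robust quasi-likelihood F tests, two-sided, 1 mean per group over all 12 libraries. A gene was called at a Benjamini-Hochberg adjusted p under 0.05 over all tested genes. Standard errors are the log2 fold change divided by the square root of F, errors of CPM are SDs of 3 libraries, and CPM are read counts scaled to library size by TMM. Where a large change rests on few reads in a group, this standard error can be smaller than the counting error. The difference between lines is the interaction contrast. A gene with 0 reads in a group was set against 3 reads per library. Functions were tested on simulated counts. The alternatives tried were scaling by RLE or by total counts, testing without a filter or at CPM of at least 1 in 3 libraries, DESeq2 1.42.0, limma-voom 3.58.1, the HPS32 libraries alone, a 2-fold threshold, omission of each library, and a replicate block.

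The members and gene lists were chosen with earlier results of these data known. Lists were made from identifiers or from the deposited domain descriptions. By rule, genes named were the 10 with the largest gain and the 10 with the largest loss of CPM, the 6 largest rises and falls on the log2 scale, each list's largest rise, largest fall and most abundant member, every member of lists given by identifier, and the largest differences between lines. The rule gave 249 genes and 59 lists were computed. Of these, 132 genes and 46 lists are described, a selection made with their values known, and 8 described genes lie outside the rule. The abscisic acid list is described as well but is not among the 46, and the alternatives were tried on its single genes only. The set of variable genes at 28 °C and its thresholds were chosen after seeing the data.

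Replicate numbers were checked at 28 °C, where the columns carry them: deviations from group means correlated at r = 0.426, 0.113 and 0.403 for numbers 1, 2 and 3 between libraries of the lines with equal numbers and at -0.43 to 0.0748 for unequal ones, across genes. This pairing is read from the data, not the labels, and the numbers of the heat columns are not tied to sample titles, so the block covers the 28 °C libraries only.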

Additional observations from a re-analysis of the deposited data

Results flagged for a closer look

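Each result here is listed because the heat response differed between HPS32 and HJX in the edgeR test of the difference itself, at an adjusted p under 0.05, which 7473 genes passed. Groups of 3 libraries were not searched for single outlying libraries. Differences are log2 fold changes of HPS32 minus those of HJX.

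Among genes already described, the differences were -1.49 ± 0.33 for HsfA2a (Os03g0745000), -2.14 ± 0.46 for RAmy3D (Os08g0473900), -3.60 ± 0.27 for TPP2 (Os10g0553300), -1.11 ± 0.15 for NYC1 (Os01g0227100), -0.75 ± 0.10 for PAO (Os03g0146400) and 0.95 ± 0.16 for Rubisco activase (Os11g0707000). The chitinase-type genes Os11g0701000 and Os11g0701100 stood at -5.40 ± 0.81 and -4.89 ± 0.41, and the decarboxylase gene Os08g0140300 at 3.25 ± 0.43.

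The short-chain dehydrogenase gene Os07g0691600 went from 0.191 ± 0.217 to 0.502 ± 0.462 CPM in HPS32 and from 0.118 ± 0.152 to 22.5 ± 3.64 CPM in HJX (difference -6.14 ± 1.75, edgeR adjusted p = 0.023), a call lost without HJX replicate 2 or HPS32 replicate 1 or 2 at 28 °C (edgeR adjusted p = 0.0506 to 0.258). The clathrin gene Os11g0104866 varied widely among replicates, from 9.87 ± 9.94 to 1.89 ± 1.41 CPM in HPS32 and from 0.629 ± 0.591 to 17.4 ± 14.4 CPM in HJX (difference -7.13 ± 2.21, edgeR adjusted p = 0.0426). Its call was lost in 10 of 12 omissions of a library (edgeR adjusted p = 0.0677 to 0.103), without the filter, with limma-voom and with the replicate block (edgeR adjusted p = 0.0501). An unannotated transcript with a BAH domain, on chromosome 10 from 13756322 to 13762756 in the deposited coordinates, went from 1.62 ± 0.325 to 1.01 ± 0.123 CPM in HPS32 and from 1.02 ± 0.584 to 16.9 ± 4.35 CPM in HJX (difference -4.74 ± 0.46). The hydrophobic seed protein-type gene Os06g0168700 went from 1.31 ± 0.298 to 1.98 ± 0.45 CPM in HPS32 and from 3.94 ± 1.23 to 0.618 ± 0.0748 CPM in HJX (difference 3.24 ± 0.47).

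Genes with at most 3 reads in a group are given by level, with no fold. The DUF2921 gene Os01g0678100 went from 8.26 ± 0.684 to 0.259 ± 0.0996 CPM in HPS32 and from 8.74 ± 1.52 to 0.0199 ± 0.0345 CPM in HJX (edgeR adjusted p of the difference = 0.00549). The cytochrome P450 gene Os08g0262500 went from 16.7 ± 3.14 to 0.225 ± 0.0283 CPM in HPS32 and from 14.1 ± 1.95 to 0 ± 0 CPM in HJX (edgeR adjusted p = 0.00341). Another cytochrome P450 gene, Os03g0371350, went from 4.93 ± 1.48 to 0.0869 ± 0.0307 CPM and from 6.66 ± 1.15 to 0 ± 0 CPM in the same order (edgeR adjusted p = 0.0359), a call lost with limma-voom and in 5 of 12 omissions, any HJX heat library and HPS32 heat libraries 1 and 2. The DUF629 gene Os11g0549605 went from 0.333 ± 0.103 to 2.904 ± 0.549 CPM and from 0.0243 ± 0.042 to 5.69 ± 0.666 CPM (edgeR adjusted p = 0.000814). The Pumilio-type gene Os12g0493900 went from 0.0244 ± 0.0423 to 6.98 ± 1.28 CPM and from 0.189 ± 0.089 to 3.79 ± 0.904 CPM (edgeR adjusted p = 0.0164), a call lost without HJX replicate 1 or HPS32 replicate 2 or 3 at 28 °C.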

How the results depend on the processing

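The number of changed genes, 17925, was within 1.5 times under every alternative but one: a 2-fold threshold gave 9246, with 4466 up, 4780 down and 2108 differing between lines. It was 17883 with RLE scaling, 18297 without a filter, 17461 with the stricter filter, 17713 with DESeq2, 17916 with limma-voom and 17553 with the HPS32 libraries alone. Total-count scaling gave 14369 up, 5063 down and 8481 differing between lines. Leaving out 1 library gave 16931 to 17272 changed, 8150 to 8291 up and 8763 to 8981 down over 6 omissions, and 6161 to 7322 differing between lines over 12. With the replicate block, 18551 changed, 9022 up and 9529 down, and 8581 differed; among described genes it changed the calls of Os05g0343400 and of the difference at Os11g0104866 and no other.

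Signs turned only under total counts or with the HPS32 libraries alone. Under total counts Os01g0227100 was at 0.42, Os03g0146400 at 0.52, Os04g0266900 at 0.051, Os07g0246200 at 0.53, Os08g0157600 at 0.42, Os09g0451500 at 0.47 and Os11g0199200 at 0.53. Medians then turned to 0.54 for all tested genes, 0.24 for HSFs, 0.47 for autophagy, 0.32 for glutathione S-transferases, 0.19 for cyclins and kinesins and 0.14 for AP2/ERF genes. With the HPS32 libraries alone the median of all tested genes was 0.026. A median counts as turned here where both values exceed the replicate spread, a rule set after first values were seen. A 2-fold threshold removed the calls of 16 of the 140 described genes. Total counts assume equal RNA totals, which these files cannot test. Depth limits genes with few reads, such as TT2.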
